A study of Heterocephalus glaber with 6 samples.

Results

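The 100 loci described here stood higher in the epidermis of naked mole-rats after DMBA/TPA than in any other library of the study. The count tables list 33281 gene IDs, here called loci, and 11917 of them reached 2 CPM (a count divided by the library's total count and scaled to 1e6) in both DMBA/TPA libraries. These eligible loci were ranked by the lower of the 2 DMBA/TPA CPM plus 0.5, divided by the highest CPM of the other 6 libraries plus 0.5, and the 100 with the highest ratio are the members. The measured values therefore chose the members. Their level in DMBA/TPA relative to the other groups, and any test result for it, is given only as a description. None of the members could be given a gene symbol: the count tables pair no ID with a name, and 0 of their IDs matched the RefSeq gene table used here. Members are therefore named by their rank, and 2 also by ID.

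Naked mole-rats are long-lived subterranean rodents in which spontaneous tumours are rarely reported. In the initiation-promotion protocol for skin tumours, developed in mice, DMBA is a polycyclic aromatic hydrocarbon whose metabolites form DNA adducts, and TPA is a phorbol ester that activates protein kinase C and, applied repeatedly to mouse skin, gives inflammation and thickening of the epidermis. Acetone is the solvent of both.

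RNA came from epidermis of wild-type animals aged 6 to 7 months, peeled from the dermis after dispase digestion, in 4 groups of 2 libraries. In the DMBA group, 100 µl of DMBA at 1 mg/ml was applied once and skin was taken on day 10. The DMBA/TPA group received the same application, then TPA at 0.1 mg/ml 2 times per week, and skin was taken on day 46. Treatment and day of harvest thus cannot be told apart between the treated groups. Each treatment had its own acetone control sample with 2 numbered count columns, each taken as a library, and no harvest day was found for the controls in the labels. The labels do not say that libraries came from separate animals, so the tests rest on the spread between libraries, which may be technical. Without gene symbols the labelled tissue could not be checked against marker genes. In a mixed tissue more cells of a type and more RNA per cell cannot be told apart. The libraries held between 22852358 and 38124702 counts, and all 4 treated libraries were deeper than the 4 acetone libraries; the part of depth in the results was not tested.

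Of the eligible loci, 959 stood higher in both DMBA/TPA libraries than in each of the other 6, which is 8.05%. The members are the upper end of these, with ratios from 4.84 at rank 1 to 1.503 at rank 100 and a median of 1.66. The ratio was at least 2 in 22 members and at least 3 in 10. The edge of the list does not mark a gap, since the last 2 members had ratios of 1.508 and 1.503, and the next 2 loci in order, which are not members, had 1.499 and 1.491. Their mean level in DMBA/TPA ran from 2.45 to 164043 CPM with a median of 20.7 CPM, close to the 18.3 CPM of all eligible loci. The lowest count behind a member's value in a DMBA/TPA library was 85 reads.

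**Figure D1:**
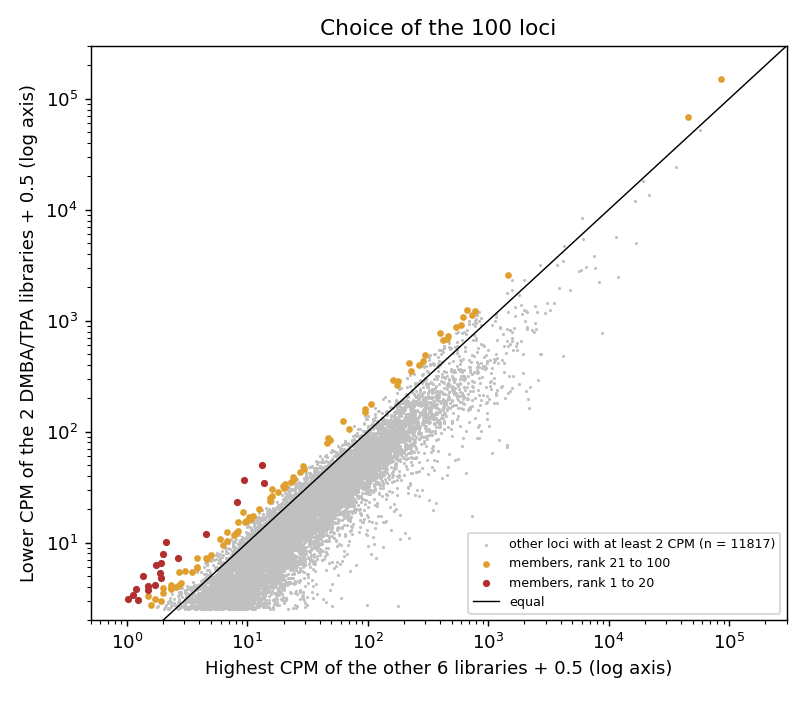
Each point is a locus with at least 2 CPM in both DMBA/TPA libraries, placed by the highest CPM of the other 6 libraries (horizontal, log axis) and the lower CPM of the DMBA/TPA libraries (vertical, log axis), both plus 0.5. The 100 members form the upper edge of the cloud at every level, the 20 of highest rank lie at its lower left, and 2 members stand alone at the upper right.

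The members of highest rank were scarce transcripts outside DMBA/TPA. The 20 first members, a division chosen after their values were seen, had ratios of 2.44 or more and a median of 5.36 CPM in DMBA/TPA, and 13 of them stayed under 10 CPM there. Rank 1, MSTRG.11754, was read at 1.40 and 0.255 CPM in the DMBA controls, at 1.60 and 1.32 CPM in the DMBA/TPA controls, at 1.13 and 0.568 CPM after DMBA, and at 9.67 and 27.1 CPM after DMBA/TPA. These values stand for 7 to 39 reads in each of the 6 other libraries and for 334 and 1033 reads in the DMBA/TPA libraries. The DMBA/TPA libraries were both far above the rest but differed from each other 2.80-fold, the widest gap of any member.

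Rank 2 had the opposite order of the DMBA/TPA libraries, with 18.0 and 7.42 CPM, against a highest value of 1.49 CPM elsewhere. Rank 3 was more abundant and more even, at 38.6 and 36.4 CPM after DMBA/TPA and between 2.36 and 8.94 CPM in the other libraries. Its DMBA libraries lay at 8.94 and 2.36 CPM, so they held both its highest and its lowest value outside DMBA/TPA.

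Rank 4 was the most abundant of the first 20, with 52.0 and 49.6 CPM after DMBA/TPA. It was read at 11.4 and 8.77 CPM in the DMBA controls and at 12.8 and 5.84 CPM in the DMBA/TPA controls. After DMBA it stood at 3.49 and 2.38 CPM, below all 4 acetone libraries. Its fitted DMBA effect was -1.59 on the log2 scale (SE 0.372), which did not pass the threshold (edgeR adjusted p = 0.0827). Ranks 5 to 10 lay between 2.61 and 8.34 CPM in the DMBA/TPA libraries and never above 1.44 CPM elsewhere. Among them, ranks 8 and 10 had no read in the second DMBA control and rank 9 none in the first DMBA library, where a count of 0 allows up to 0.109 and 0.0997 CPM (3 counts, counting error only). In all, 7 members had no count in at least 1 of the other libraries, and none lacked counts in more than 2.

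The most abundant locus of the epidermis was itself a member. MSTRG.822, at rank 43, was read at 57644 and 53456 CPM in the controls for DMBA, 39932 and 41202 CPM in those for DMBA/TPA, 81833 and 86467 CPM after DMBA, and 149988 and 178099 CPM after DMBA/TPA. The 4 groups did not overlap, and the DMBA libraries lay between the acetone and the DMBA/TPA libraries. Rank 98, the second most abundant member, followed the same order of groups at a lower level. It was read at 30767 and 30794 CPM, 22525 and 22603 CPM, 45817 and 33875 CPM, and 69155 and 83237 CPM in these 4 groups.

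Together these 2 loci took up 8.63% ± 0.294 and 6.31% ± 0.0953 of a library in the control sets of DMBA and DMBA/TPA, and 12.4% ± 0.517 and 24.0% ± 2.98 in the treated groups (SD, n = 2 libraries). The other 98 members held 0.777% ± 0.0143, 0.706% ± 0.0282, 0.937% ± 0.0392 and 1.74% ± 0.0305 in the same order of groups (SD, n = 2 libraries). The rule divides by total counts, and a locus with 16.4% of the counts lowers the CPM of every other one. With total counts as the scaling, the 18422 loci tested centred on a log2 fold change of -0.52 (median) in DMBA/TPA against its controls, compared with -0.04 under TMM, a scaling that takes most loci as unchanged. Members other than these 2 stood highest in DMBA/TPA on the total-count scale, on which the loci tested centred lower. How much of the difference between the scalings these 2 loci account for was not tested.

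Abundant loci made up a visible share of the list. Of the 62 eligible loci at 1000 CPM or more in DMBA/TPA, 7 were members, 11.3%. This compares with 1.72% of those from 100 to 1000 CPM, 0.57% of those from 10 to 100 CPM and 0.895% of those from 2 to 10 CPM. After the 2 largest, ranks 40, 31, 66, 77 and 41 came next, at 2683, 1252, 1238, 1140 and 1103 CPM on average after DMBA/TPA. At rank 40 the range was 1069 to 1158 CPM over the 4 acetone libraries, 1412 and 1461 CPM after DMBA, and 2602 and 2763 CPM after DMBA/TPA. Loci with Ensembl-format IDs were 9 of the 100 members, against 17.2% of the eligible loci and 10.8% of the 959 above all other libraries. These 9 lay between ranks 21 and 90 and at 2.85 to 16.9 CPM after DMBA/TPA. The other 91 had IDs of the format given to assembled transcripts.

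The DMBA/TPA libraries resembled each other closely in most members. In 54 members they differed by less than 1.1-fold and in 95 by less than 1.5-fold, and by over 2-fold only in 3, ranks 1, 2 and 22. The rule favours such agreement because it uses the lower library, and the shares of eligible loci within these limits were not computed. The median ratio of the second to the first library was 0.959 in the members and 0.923 in the eligible loci. The second DMBA/TPA library was the higher one in 30 members and in 30.8% of the eligible loci.

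**Figure D2:**
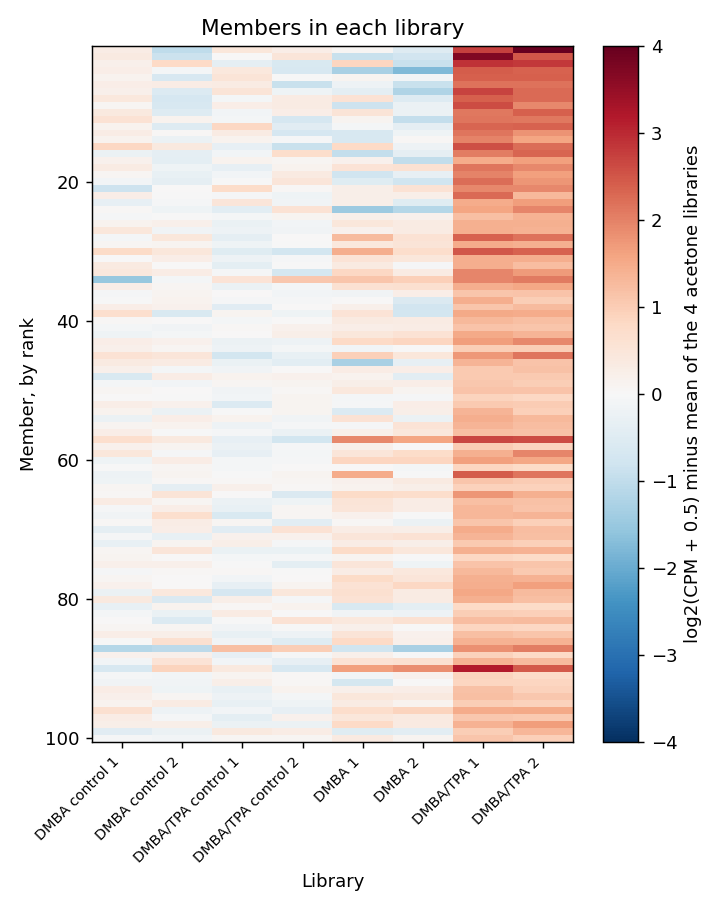
Each row is a member, by rank, and each column a library, and the colour gives log2(CPM + 0.5) minus the mean of the 4 acetone libraries, capped at 4. The DMBA/TPA columns are red throughout, as the rule requires, while the DMBA columns are mixed in the first 20 rows and mostly pale red below.

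How far the pattern held in a library that had no part in the choice was read by leaving out each library and choosing 100 loci anew. Of the 100 loci chosen without the first DMBA/TPA library, 90 stood higher in that library than in all other 6, against 13.4% of the 12197 loci eligible for that list. Of those chosen without the second, 96 did so, against 9.75% of 12443. Only the left-out library was new to this comparison. The other 6 had helped choose the list for low values, while the eligible loci were not chosen by them. The median ratio went from 1.90 in the library used to 1.74 in the library left out, and from 1.85 to 1.65 the other way. These lists shared 61 and 76 loci with the members. When a control or DMBA library was left out, it lay below both DMBA/TPA libraries in 98 to 100 of the 100 loci chosen without it. Among all eligible loci this held for 23.2% and 24.8% with the first and the second DMBA control, 30.7% and 25.0% with the DMBA/TPA controls, and 31.9% and 25.8% with the DMBA libraries. Here the DMBA/TPA libraries had helped choose the lists for high values. All 20 first members stayed in each of the 8 lists. Leaving out a library cannot lower a locus's ratio, and these members had ratios of 2.44 or more. The lowest ratios in the 8 lists were only 1.51 to 1.68, so their staying is not a separate check.

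**Figure D3:**
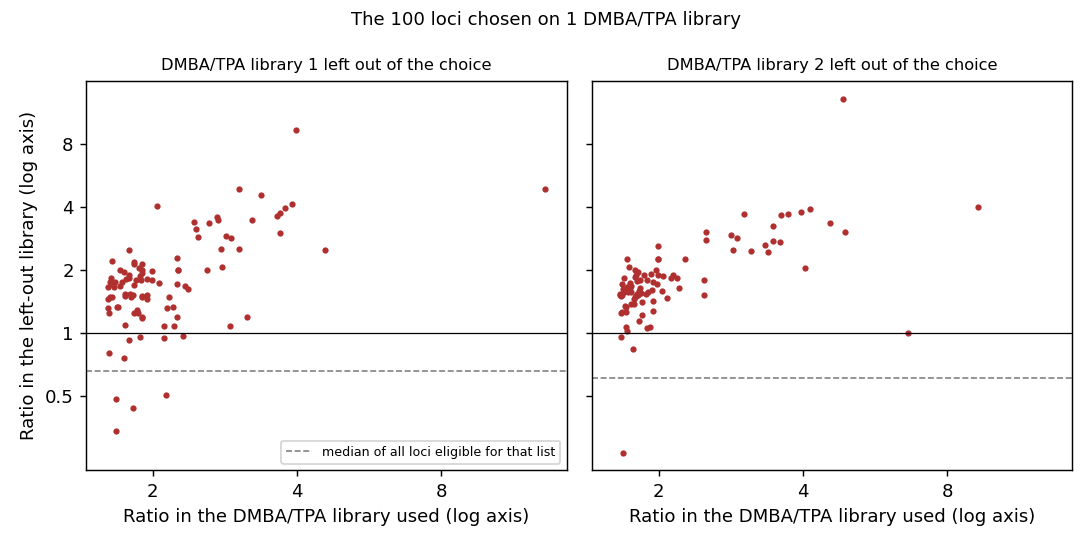
Each point is 1 of the 100 loci chosen on a single DMBA/TPA library, placed by its ratio to the highest of the other 6 libraries in the library used (horizontal, log axis) and in the library left out (vertical, log axis). Above the solid line, at a ratio of 1, lie 90 loci on the left and 96 on the right. Dashed lines mark the medians of all eligible loci, 0.658 and 0.605, which the other 6 libraries did not help choose.

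The comparison of DMBA with its own controls was not what the rule ranked, although each of these libraries could keep a locus out by standing high. Of the 100 members, all of which passed the low-count filter also without the DMBA/TPA libraries, 3 rose after DMBA and none fell at an edgeR adjusted p below 0.05, where 1.11% of all loci tested were called, 0.836% higher and 0.271% lower. With unadjusted p below 0.05 the members numbered 30 higher and 2 lower, against 9.5% and 8.43% of all loci. DESeq2 called 15 higher and 2 lower, where it called 5.24% of all loci, 3.36% higher. The median log2 fold change of the members in DMBA was 0.37, against 0.00 over all loci tested, and 77 of them had a positive value, against 50.3% of all loci.

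Rank 57 had the smallest p of the 3. It was read at 7.88 and 6.37 CPM in the DMBA controls, 3.70 and 2.65 CPM in the DMBA/TPA controls, 19.4 and 15.04 CPM after DMBA, and 33.0 and 31.6 CPM after DMBA/TPA. Its groups formed 4 separate levels, and its log2 fold change in DMBA was 1.47 (SE 0.242, edgeR adjusted p = 0.0296). Rank 71 went from 18.9 and 15.9 CPM in the DMBA controls to 27.5 and 29.2 CPM after DMBA, a log2 fold change of 0.89 (SE 0.156, edgeR adjusted p = 0.034). Rank 42 went from 28.7 and 30.9 CPM to 44.6 and 48.1 CPM, a log2 fold change of 0.82 (SE 0.155, edgeR adjusted p = 0.0464). After DMBA/TPA these 2 stood at 50.6 and 46.1 CPM and at 94.0 and 84.1 CPM.

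For MSTRG.822 the DMBA effect was 0.78 (SE 0.246, edgeR adjusted p = 0.151) and for rank 98 it was 0.56 (SE 0.268, edgeR adjusted p = 0.312), so neither passed the threshold. The number of calls in DMBA changed with the libraries in the fit, over all loci as well as among the members. With a library left out, the members' median log2 fold change in DMBA was 0.24 to 0.53. That of all loci was -0.017 to 0.030 in these fits. The calls of ranks 57, 71 and 42 were lost in 8, 9 and 11 of 15 alternatives, with highest edgeR adjusted p of 0.307, 0.391 and 0.398, while their log2 fold changes ran from 1.22 to 1.67, 0.70 to 0.95 and 0.64 to 0.94.

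The libraries outside DMBA/TPA are read here one by one, as a description, since the rule divides by the highest of them. The DMBA group often came next below DMBA/TPA. The highest value outside DMBA/TPA lay in a DMBA library in 61 members, against 27.2% of the eligible loci, in a DMBA/TPA control in 22, against 36.7%, and in a DMBA control in 17, against 36.2%. Both DMBA libraries stood above all 4 acetone libraries in 32 members, where 8.27% of the eligible loci did so, and below all 4 in 6, where 22.2% did. With TMM-scaled CPM, which raises the treated libraries, the first of these counts was 50, against 17.6% of the eligible loci, and without the second DMBA library it was 53, against 18.3%. The highest other library was a DMBA library in 40 members without the first DMBA library, against 17.1%.

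Upper and lower ranks are set side by side here without a test. Among ranks 1 to 20 both DMBA libraries were above all acetone libraries in 1 member, the fitted DMBA effect was negative in 14, and its median was -0.38. Among ranks 21 to 100 both were above all acetone libraries in 31, the fitted effect was positive in 71 of 80, and its median was 0.40. The upper ranks had to have low values in every other library, DMBA included, so the rule itself bears on this contrast. All 7 members at 1000 CPM or more but 1 had both DMBA libraries above the 4 acetone libraries, and 4 of the 35 members between 2 and 10 CPM did.

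**Figure D4:**
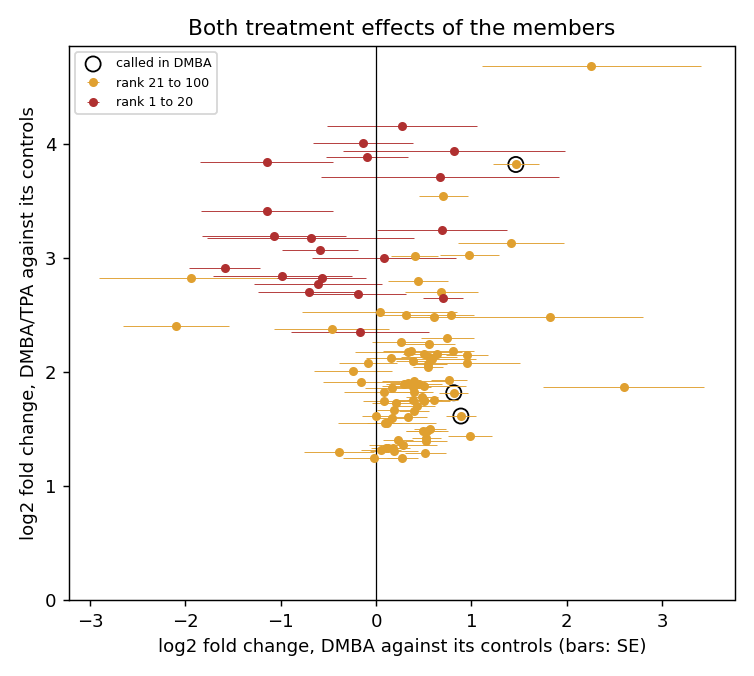
Each point is a member, placed by its fitted log2 fold change in DMBA against the DMBA controls (horizontal, bars give the standard error) and in DMBA/TPA against the DMBA/TPA controls (vertical). All values on the vertical axis are positive by the choice of members, 14 of the 20 first members lie left of 0 in DMBA, and rings mark the 3 members called in DMBA.

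In DMBA/TPA against its own controls 97 of the 100 members were called higher by edgeR, where 14.5% of all loci tested were called higher. A larger effect in DMBA/TPA than in DMBA was called for 58 members, where 2.07% of all loci had one. The rule used these libraries, so nothing is read from either count. Relative to their own controls the DMBA/TPA means of the members were between 1.70 and 19.3 times as high, with a median of 3.03. The 3 members that were not called were ranks 21, 34 and 46, all low. Rank 34 was read at 0 and 0.837 CPM in the DMBA controls, 1.56 and 2.48 CPM in the DMBA/TPA controls, 2.56 and 2.24 CPM after DMBA, and 5.04 and 5.46 CPM after DMBA/TPA, and its count of 0 allows up to 0.131 CPM. It was the single member with a larger fitted effect in DMBA than in DMBA/TPA, 2.60 (SE 0.846) against 1.87 (SE 0.747) on the log2 scale, and the difference did not pass the threshold (edgeR adjusted p = 0.762).

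The acetone controls of the 2 treatments were compared next. Relative to the DMBA controls 1 member was called higher in the DMBA/TPA controls and none lower by edgeR, where 0.711% of all loci were called, 0.565% higher and 0.147% lower. With unadjusted p below 0.05 there were 3 higher and 15 lower, against 7.58% and 8.72% of all loci. DESeq2 called 1 higher and 4 lower, where it called 5.08% of all loci. Both DMBA/TPA controls lay below both DMBA controls in 37 members, where 26.6% of the eligible loci did so, and above them in 16, where 26.5% did.

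The called member was rank 87, at 1.14 and 1.24 CPM in the DMBA controls and 7.85 and 6.67 CPM in the DMBA/TPA controls. It was read at 1.60 and 0.965 CPM after DMBA and at 12.2 and 14.5 CPM after DMBA/TPA. High values were thus found in the DMBA/TPA libraries and in their own controls, and not in the DMBA group or its controls. The log2 difference between the control sets was 2.54 (SE 0.338, edgeR adjusted p = 0.0266). The call between the control sets was lost without either DMBA control, without the first DMBA/TPA control, without either DMBA/TPA library or with the control columns summed, while the log2 difference stayed at 2.36 to 2.69 in all 15 alternatives. The members' median log2 difference between the control sets was -0.217, and -0.230 to -0.145 with a library left out. Over all loci tested it was -0.023, and -0.049 to 0.039 with a library left out. Unlike rank 87, rank 30 stood at 28.7 and 23.0 CPM in the DMBA controls and at 11.8 and 9.81 CPM in the DMBA/TPA controls. This log2 difference of -1.31 did not pass the threshold (edgeR adjusted p = 0.0636).

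**Figure D5:**
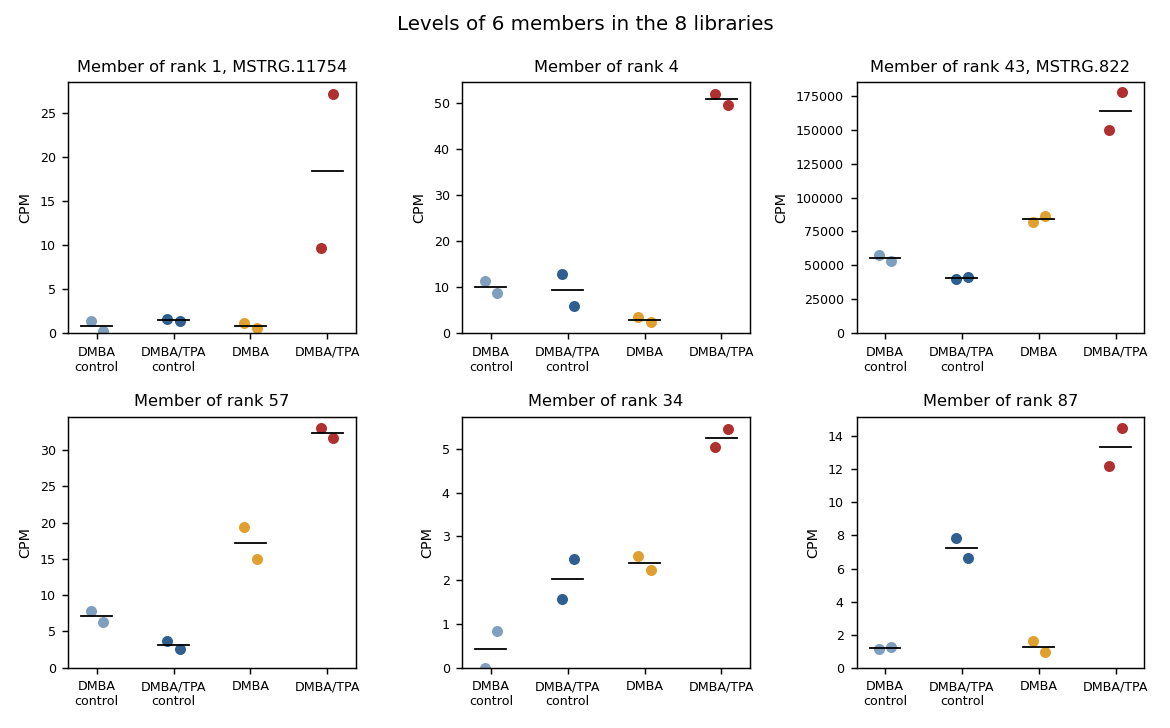
CPM of 6 members in the 8 libraries, with 2 points per group and a line at their mean. Ranks 1 and 4 were low in all groups but DMBA/TPA, rank 43 (MSTRG.822) and rank 57 had DMBA at a middle level, rank 34 had its lowest values in the DMBA controls, and rank 87 was raised in the DMBA/TPA controls too.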

How the data were processed

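Libraries were depleted of ribosomal RNA and made with a directional kit, per the labels' protocols. Values were deposited as raw counts for each gene ID, as the labels state. The submitters' processing notes name TopHat2, Bowtie2, cutadapt and FastQC, with no role or version. The sources used here give no genome build, annotation, counter or strand setting, so reads of overlapping, antisense or near-identical loci may be shared or split. The 8 columns belong to 6 GEO samples; the header of 1 DMBA/TPA column is a bare number, and its file gave its sample. No pair of libraries agreed within sampling noise (chi-square per degree of freedom of at least 26.2 over loci with 20 or more reads in the pair). CPM were computed from column totals. Counts were fitted over all 4 groups with edgeR 4.0.16 in R 4.3.3 (filterByExpr with minimum count 10 and total 15, TMM, robust quasi-likelihood test, 4 residual degrees of freedom), with Benjamini-Hochberg adjustment over 18422 loci and a threshold of 0.05. Standard errors were derived from the F statistic. The procedure was tested on simulated data with changed loci in the DMBA group only, so the DMBA/TPA contrasts were not covered. The members, their rule and the tests were chosen with earlier results of these data known. The rule for named members gives IDs to rank 1 and to the most abundant member and names, by rank, the first 10, the 5 most abundant, those called in DMBA or between controls, and those at the edge of the list; ranks 21, 22, 30, 34 and 46 were picked after their values were seen. The planned marker lists could not be used without symbols. Alternatives were DESeq2 1.42.0, other scalings and filters, fits of the compared groups alone, control columns added up, the sample number as a block, other settings of the rule and leaving out each library.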

Additional observations from a re-analysis of the deposited data

Results flagged for a closer look

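For 58 members the effect of DMBA/TPA against its controls was larger than that of DMBA against its controls by a test of the difference itself (edgeR adjusted p below 0.05), where 2.07% of all loci tested had a larger effect in DMBA/TPA. The members were chosen for high DMBA/TPA and lower DMBA values, so the count is a description. Without any single control or DMBA/TPA library, or with the control columns summed, fewer were called higher, over all loci as well as among the members. Such fits leave 1 library in a group, so only effect sizes are given. The members' median log2 difference between the effects was 1.616 as reported and 1.503 to 1.686 with a library left out. Over all loci tested it was 0.0179, and -0.0529 to 0.132 with a library left out. For MSTRG.822 the difference was 1.72 on the log2 scale (edgeR adjusted p = 0.0278), with both effects positive. The rule used these libraries too, so this is a description. The difference ran from 1.42 to 1.90 over 14 alternatives, and it was not called in all of them.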

How the results depend on the processing

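Members called higher in DMBA/TPA against its controls numbered 90 to 100 in the alternatives with 2 libraries in each group. Over all loci 5.62% to 22% were called higher in these fits. The rule used these libraries, so the count is a description and its steadiness is not a separate check. The members called in DMBA numbered 17 with DESeq2, 1 with total counts only and 5 with no low-count filter, against 5.24%, 0.771% and 1.98% of all loci. With only the groups compared 0 of 97 members tested were called, against 0.0922% of all loci. That fit had 13 higher and 2 lower at an unadjusted p below 0.05 (edgeR), against 6.47% and 5.51%. Summing the control columns or leaving out a library leaves 1 library in a group, so only effect sizes are given here. With the columns summed the members' median log2 fold change in DMBA was 0.35, against -0.0022 over all loci tested. Between the control sets they numbered 5 with DESeq2, 4 with no filter (against 5.08% and 1.83% of all loci), 0 with the columns summed (edgeR, 2 higher and 5 lower at an unadjusted p below 0.05), and 0 to 7 with a library left out. Members with a called difference between the effects numbered 1 with the columns summed and 3 to 69 with a library left out. The members' median DMBA effect was 0.19 with total counts only, where that of all loci was -0.18, and 0.24 to 0.53 with a library left out. The DMBA effect of MSTRG.11754, 0.27 as reported, ranged from -0.49 to 1.83 with a library left out and was negative, at -0.49 and -0.33, without the second DMBA control and without the first DMBA library. Other settings of the rule kept 75 to 94 of the 100 members, and TMM scaling kept 82, with 2701 loci above all other libraries; with a library left out 61 to 98 were kept. With a minimum of 5 CPM 10 of the first 20 members were kept, since the others are scarcer. Counts of members with DMBA above all acetone libraries, checked after seeing the data, were 50 with TMM-scaled CPM and 34 to 53 with a library left out; those with a DMBA library as the highest other were 75 (against 47.6% of eligible loci) and 40 to 69. DMBA and DMBA/TPA samples share only a number in the labels (correlation of same-numbered deviations over loci 0.0719). With that number as a replicate block 2 members were called in DMBA and 1 between controls, against 0.874% and 0.581% of all loci. In DMBA/TPA 96 were called and for the difference 56, against 27.1% and 4.68%. The rule used the libraries of these last contrasts, so nothing is read from them. There were 2 libraries a group, with counts of 85 or more behind each DMBA/TPA value.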
